A study of Mus musculus with 6 samples.

Results

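The 9 genes described here encode core parts of transforming growth factor beta (TGF-beta) signalling: the ligands Tgfb1, Tgfb2 and Tgfb3, the latency protein Ltbp1, the receptors Tgfbr1 and Tgfbr2, and the intracellular mediators Smad2, Smad3 and Smad7. They were chosen by name as parts of the pathway, with earlier results of these data known, and all 9 were found among the 26264 genes of the deposited expression table. The libraries hold ribosome-bound mRNA of mouse brain from Gfap-Cre; RiboTag animals, in which Cre under a promoter of Gfap, an astrocyte intermediate filament gene, tags ribosomes that are then captured with an antibody. Both groups carry this genotype; the control diet gave 3 libraries and a diet with PLX5622 at 1200 ppm the other 3, after 1 month. PLX5622 inhibits Csf1r, the receptor on which microglia depend for survival, and the labels describe the captured cells as astrocytes with an admixture of neurons and oligodendrocytes. The labels call the libraries of a diet biological replicates and give no age or sex, and the p-values measure the spread between these libraries.

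TGF-beta ligands are secreted in a latent form, bound to their own propeptide and often to a latent TGF-beta binding protein such as Ltbp1, and need activation, for example by integrins. The active ligand brings a type II receptor (Tgfbr2) and a type I receptor (Tgfbr1) together, and the type I receptor phosphorylates Smad2 and Smad3, which enter the nucleus with Smad4. Smad7 is an inhibitory Smad that is itself induced by the pathway and closes a feedback loop. In brain, Tgfb1 is known largely as a microglial ligand and Tgfb2 as a ligand of astrocytes and neurons, and microglia depend on TGF-beta for their mature state.

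The promoters of Tgfb1 and Tgfb2 are shown because these ligands had the lowest and the highest level of the 3 and stood on opposite sides of 0 between the diets. Each sequence is the 250 bases before the RefSeq start, on the gene's own strand, in build GRCm38.p6, which is older than the mm39 build of the expression data. Tgfb1 lies at chr7:25686752-25687001 on the plus strand and Tgfb2 at chr1:186705990-186706239 on the minus strand. Capitals mark matches, on either strand, to any of the motifs named after the sequences.
Tgfb1: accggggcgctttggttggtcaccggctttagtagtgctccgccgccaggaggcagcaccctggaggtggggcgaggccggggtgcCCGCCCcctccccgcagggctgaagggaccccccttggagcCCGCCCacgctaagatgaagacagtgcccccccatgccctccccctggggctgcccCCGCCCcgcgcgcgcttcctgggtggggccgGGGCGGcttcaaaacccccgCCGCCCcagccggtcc
Tgfb2: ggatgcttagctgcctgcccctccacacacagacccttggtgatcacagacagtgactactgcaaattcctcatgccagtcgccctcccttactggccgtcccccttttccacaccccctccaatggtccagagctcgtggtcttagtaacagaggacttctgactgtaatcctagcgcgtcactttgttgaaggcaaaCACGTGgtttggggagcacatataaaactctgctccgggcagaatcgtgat
The Tgfb1 window had a GC content of 75.2% and 5 matches to the Sp1 box GGGCGG, which at least 1 time occurs in 32.7% of all 32851 RefSeq promoter windows of this length. The Tgfb2 window had a GC content of 53.6%, near the median of 52.4% over all windows, no Sp1 box and 1 E-box CACGTG, a motif present in 6.02% of windows. Neither window held the AP-1 site TGANTCA (6.75% of windows), the cyclic AMP response element TGACGTCA (1.55%), the Smad box GTCTAGAC (0.167%), the CAGA box AGCCAGACA (0.301%) or the PU.1 core GAGGAAGT (2.44%). Of the 6 genes of the list whose windows were searched, Tgfbr1 and Smad3 had 2 Sp1 boxes each and Ltbp1 had 1 cyclic AMP response element. Tgfbr1 and Ltbp1 have 2 promoter entries each, and only the first entry was searched.

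The deposited values are transcript abundances scaled to length and to a fixed library total (TPM). Such a level can be compared between genes of a library but does not keep the number of reads. The number of genes at 1 TPM or more was 12871 to 13181 per library. The libraries labelled control 3 and PLX5622 3 went against their labels in microglial transcripts. For Csf1r the control libraries 1, 2 and 3 had 4.33, 4.27 and 0.118 TPM, and the PLX5622 libraries 1, 2 and 3 had 0.811, 0.0208 and 2.05 TPM. The log2 fold changes of the authors' deposited table correlated across 13196 genes at r = 0.513 with the difference by label and at 0.940 with these 2 libraries exchanged. Values by label and values of the authors' table are therefore given apart, and each name of a library below is its label. Gfap, which marks astrocytes, was at 518, 1109 and 1393 TPM in control and 1923, 1824 and 1283 TPM in PLX5622, so the labelled cell type was present in all 6 libraries.

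Smad3, Tgfb2 and Ltbp1 were the most abundant of the 9 transcripts and Tgfb1 the least abundant. Over the 6 libraries the mean level was 23.0 TPM for Smad3, 15.4 for Tgfb2, 12.4 for Ltbp1, 6.72 for Smad2, 6.13 for Smad7, 5.11 for Tgfb3, 4.27 for Tgfbr1, 1.98 for Tgfbr2 and 0.953 for Tgfb1. Smad3 was thus above 60.4% of the 13084 genes whose mean reached 1 TPM, and Tgfbr2 above 9.16% of them. Of the 8 pairs of neighbours in this order, 6 were in that order in 6 of 6 libraries (exact two-sided sign-flip permutation test within libraries, p = 0.0312, the smallest that 6 libraries can give, adjusted p = 0.0417 over the 8 pairs). Smad2 and Smad7 did not differ beyond their spread (5 of 6 libraries, exact adjusted p = 0.0938), nor did Smad7 and Tgfb3 (5 of 6 libraries, exact adjusted p = 0.0714). Tgfb2 exceeded Ltbp1 by 1.26 times on average, with a range of 1.13 to 1.501 over libraries, and Smad3 exceeded Tgfb2 by 1.49 times.

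**Figure D1:**
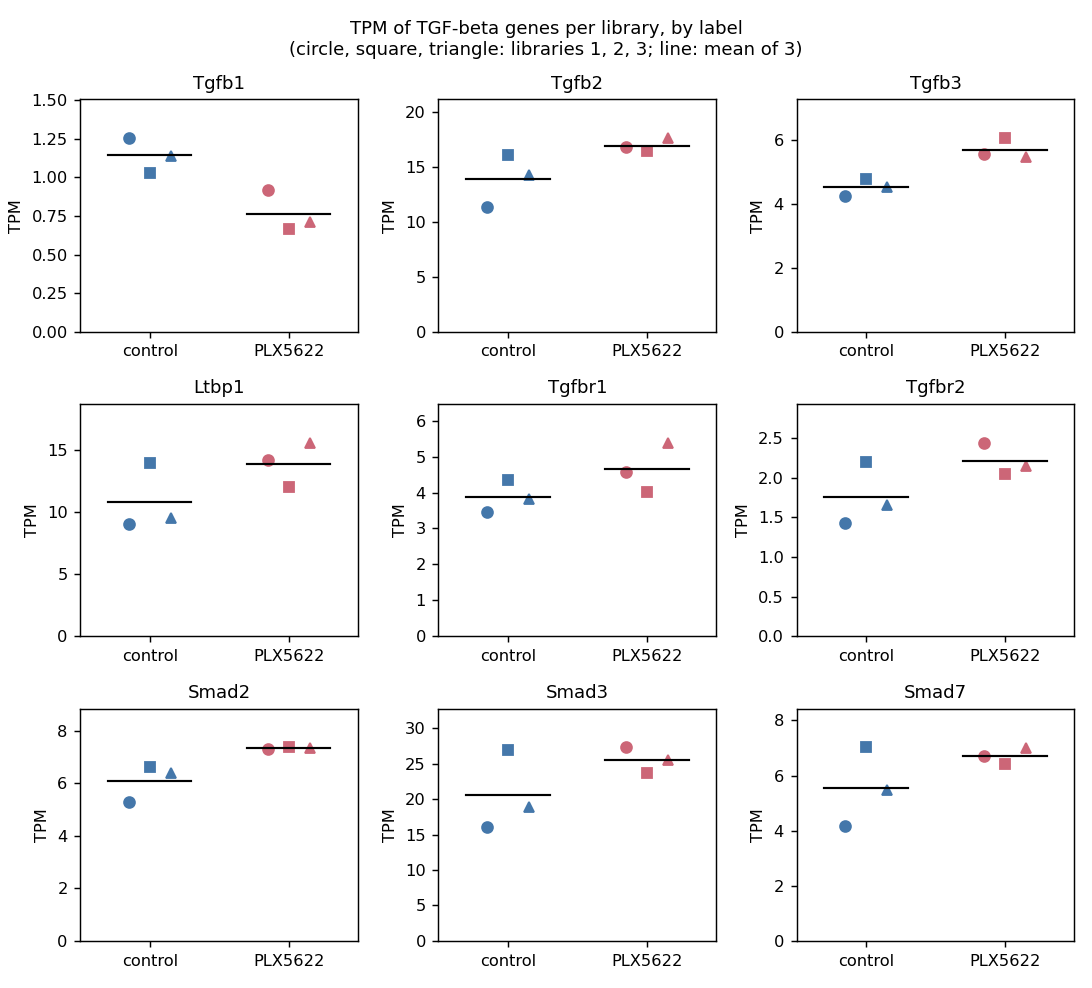
TPM of each of the 9 genes (vertical axis, from 0) in every library, grouped by diet label; each point is a library and each line the mean of 3. Tgfb1 was lower in all 3 PLX5622 libraries than in any control library, Tgfb2, Tgfb3 and Smad2 were higher in all 3, and the groups of the other 5 genes overlapped.

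Between the diets by label, no gene passed the test, within the list or outside it. limma on log2(TPM + 1) called 0 of 13084 genes (0%) at an adjusted p of 0.05, and 0 of the 8 tested members; Tgfb1, with a mean under 1 TPM, was below the filter on low values. At an unadjusted p of 0.05, 1925 genes (14.7%) were higher and 1049 (8.02%) lower in PLX5622, and 0 of the 8 members were among them. All 8 tested members had a positive difference, as did 61.1% of all tested genes, whose median was 0.089 on the log2 scale. In 3 of the 8 every PLX5622 library exceeded every control library, which was so for 2534 of all tested genes (19.4%).

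Tgfb1 was the only one of the 9 genes that was lower in the PLX5622 libraries. It stood at 1.25, 1.03 and 1.14 TPM in control 1, 2 and 3 and at 0.915, 0.668 and 0.710 TPM in PLX5622 1, 2 and 3, with means of 1.14 ± 0.111 and 0.764 ± 0.132 TPM (SD, n = 3). The groups did not overlap. Every PLX5622 library was likewise below every control library in 9.39% of the 13084 tested genes and in 9.36% of the 2276 genes with a mean from 0.5 to 2 TPM. The difference was −0.28 on the log2(TPM + 1) scale, which understates the change of so low a gene, and the exact two-sided permutation p was 0.1, the smallest that 3 against 3 libraries can give. With the filter lowered to a mean of 0.5 TPM, added after the values were seen, limma gave −0.28 ± 0.12 (SE) and an adjusted p of 0.217, and called 2 of 14149 genes (0.0141%). With no filter the limma p before adjustment was 0.0145 (adjusted p = 0.314), where 6.78% of 20064 genes were lower at an unadjusted p under 0.05. After an exchange of control 3 and PLX5622 3 the difference was −0.065. The authors' deposited table gives Tgfb1 a mean of 44.4 normalized counts, a log2 fold change of −0.22 with an SE of 0.40, and an adjusted p of 1.00 from DESeq2.

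Tgfb1 and the microglial transcripts stood apart in some libraries. In PLX5622 2, where Cx3cr1, C1qb, C1qc, Ctss, Fcrls and Itgam were listed at 0 and Csf1r was at 0.0208 TPM, Tgfb1 was still at 0.668 TPM. In control 3, where Csf1r was at 0.118 TPM, Tgfb1 was at 1.14 TPM, between the other 2 control libraries. The 16 microglia genes summed to 149.9, 95.4 and 37.5 TPM in the control libraries and to 41.7, 28.7 and 61.1 TPM in the PLX5622 libraries. The 6 genes listed at 0 were named after their values were seen. All 14 tested microglia genes were negative by label, with a median of −0.84, and 0 were called. Their median was −1.68 after an exchange of control 3 and PLX5622 3. In the authors' deposited table all 16 were negative, with a median of −3.36. There 15 had a DESeq2 p under 0.05 and 5 were called. That table does not name its numerator, and negative was read as lower on PLX5622 because microglial genes are negative there. Their direction in it is thus no separate result. The 7 border macrophage genes summed to at most 1.46 TPM in any library. In bulk RNA, fewer cells of a type and less RNA per cell cannot be told apart.

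**Figure D2:**
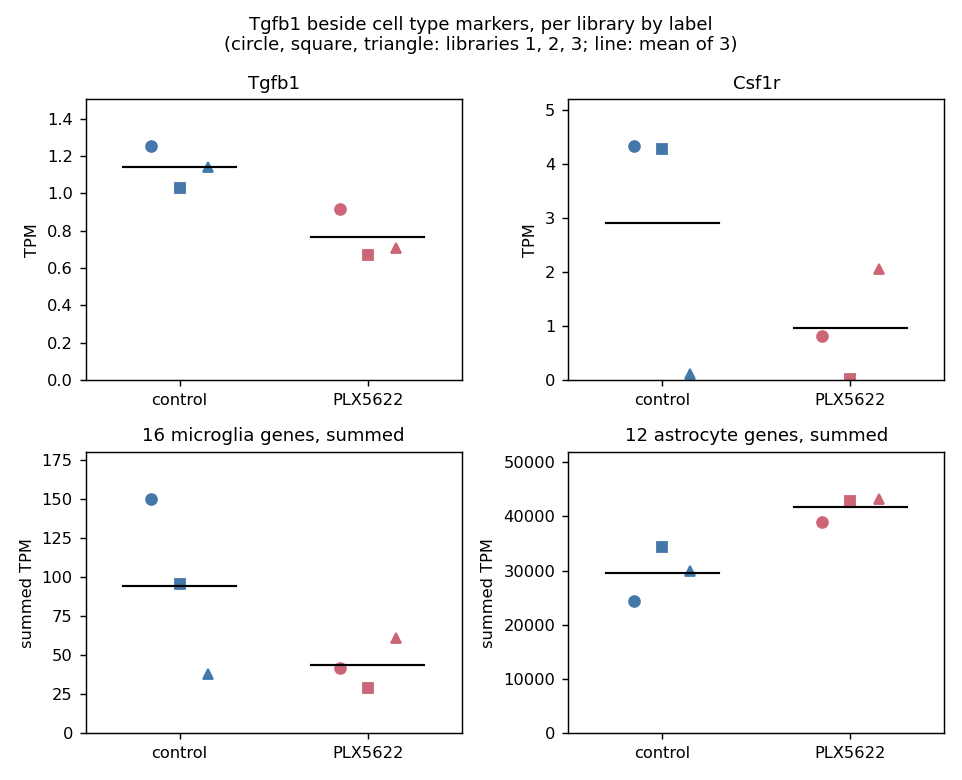
Levels of Tgfb1 and Csf1r in TPM, and summed TPM of 16 microglia genes and of 12 astrocyte genes, in every library by diet label (axes from 0; line, mean of 3). Control 3 (triangle) has Tgfb1 at 1.14 TPM with Csf1r at 0.118 TPM, and the astrocyte sums of the 3 PLX5622 libraries lie above those of the 3 control libraries.

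Tgfb2, the main TGF-beta ligand transcript of these libraries, was at 11.4, 16.1 and 14.3 TPM in control 1, 2 and 3 and at 16.8, 16.4 and 17.6 TPM in PLX5622. Every PLX5622 library was above every control library, with control 2 just under the lowest of them. The difference was 0.28 ± 0.15 (log2, SE; 95% interval −0.056 to 0.61; limma adjusted p = 0.270). Tgfb3 was at 4.25, 4.78 and 4.54 TPM in control and at 5.55, 6.06 and 5.46 TPM in PLX5622, again without overlap. Its difference was 0.28 ± 0.13 (95% interval −0.012 to 0.56; limma adjusted p = 0.230). The authors' deposited table has Tgfb2 at 0.038 (SE 0.17) and Tgfb3 at 0.11 (SE 0.19).

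The make-up of the ligand pool was dominated by Tgfb2 in every library. It held 67.4% to 74.0% of the summed TPM of the 3 ligands, Tgfb3 held 21.9% to 26.2% and Tgfb1 held 2.89% to 7.42%. The share of Tgfb1 was 7.42%, 4.71% and 5.71% in control and 3.94%, 2.89% and 2.99% in PLX5622, a difference of −2.68 percentage points (exact two-sided permutation p = 0.1, the smallest possible; adjusted p = 0.3 over 3 ratios). It was −0.861 percentage points after an exchange of control 3 and PLX5622 3. The summed ligand level was 19.6 ± 2.51 TPM in control and 23.4 ± 0.330 TPM in PLX5622 (SD, n = 3).

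Ltbp1, which tethers latent ligand to the matrix, was at 9.02, 14.0 and 9.51 TPM in control 1, 2 and 3 and at 14.2, 12.01 and 15.6 TPM in PLX5622. Control 2 lay within the PLX5622 range and the other 2 control libraries below it. The difference was 0.35 ± 0.18 (log2, SE; 95% interval −0.059 to 0.76; limma adjusted p = 0.262). The authors' deposited table has Ltbp1 at −0.15 (SE 0.22), and by TPM, after an exchange of control 3 and PLX5622 3, it was at −0.089.

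Other genes of latency and activation were mostly higher by label, and none passed. Of 16 tested among 23, 13 were positive, 5 had an unadjusted p under 0.05 in that direction and 1 in the other, against 14.7% and 8.02% of all genes, of which 61.1% were positive. The median was 0.28 by label and 0.10 after length correction, with 10 of 16 positive. It was 0.059 after an exchange of control 3 and PLX5622 3. Itgb5, an integrin beta subunit, was at 153 ± 44.2 TPM in control and 222 ± 3.46 TPM in PLX5622 (SD, n = 3). It differed by 0.57 ± 0.19 (log2, SE). Itgav, the alpha subunit of TGF-beta activating integrins, was at 21.4, 36.2 and 28.3 TPM in control and at 40.6, 44.1 and 47.7 TPM in PLX5622. Its groups did not overlap, as in 19.4% of all genes, and it differed by 0.64 ± 0.18. Itgb1, another beta subunit, differed by 0.29 ± 0.13, and Mmp14, a membrane protease, by 0.34 ± 0.16. These had limma adjusted p between 0.205 and 0.231. In the authors' deposited table Itgb5 was at 0.084, Itgav at 0.077, Itgb1 at 0.041 and Mmp14 at −0.18. After an exchange of control 3 and PLX5622 3 the difference of Itgav was 0.15. The authors listed 12 of these 23 with a negative value in their deposited table, and 0 had a p under 0.05.

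Itgb8, whose product pairs with that of Itgav to activate latent TGF-beta, was chosen after its values were seen. It was at 0.934, 5.66 and 2.12 TPM in control 1, 2 and 3 and at 6.38, 9.24 and 8.50 TPM in PLX5622. The difference was 1.39 ± 0.37 (log2, SE; limma adjusted p = 0.205), 1.15 ± 0.31 after correction for transcript length, and 0.32 after an exchange of control 3 and PLX5622 3. Nrros, which anchors latent Tgfb1 on microglia and was likewise chosen after its values were seen, was at 3.11, 2.39 and 3.23 TPM in control and at 3.04, 8.43 and 3.26 TPM in PLX5622. Its high value fell in PLX5622 2, the library with the lowest microglial sum. Dcn, a matrix proteoglycan that binds TGF-beta and marks fibroblasts, was at 4.04, 11.8 and 7.07 TPM in control and at 4.21, 2.15 and 1.21 TPM in PLX5622 (−1.28 ± 0.37; limma adjusted p = 0.205), with −0.038 after that exchange. Dcn too was chosen after its values were seen. The 7 fibroblast and meningeal genes, of which Dcn is 1, summed to 24.2 to 42.9 TPM in control and 29.1 to 35.1 TPM in PLX5622. Pdgfra, another of the 7, is also listed as a gene of oligodendrocyte precursors. It made up 9.03, 21.0 and 11.7 TPM of the control sums and 18.9, 14.8 and 19.1 TPM of the PLX5622 sums. The part of the 7 genes in the result was not tested.

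The receptors were low and their groups overlapped. Tgfbr1, the type I kinase receptor, was at 3.46, 4.36 and 3.83 TPM in control and at 4.57, 4.01 and 5.38 TPM in PLX5622. It differed by 0.21 ± 0.15 (log2, SE; 95% interval −0.12 to 0.54; limma adjusted p = 0.377). Tgfbr2, the ligand-binding type II receptor, was at 1.43, 2.19 and 1.66 TPM in control and at 2.44, 2.04 and 2.15 TPM in PLX5622. It differed by 0.23 ± 0.14 (95% interval −0.10 to 0.55; limma adjusted p = 0.338). In both, control 2 stood among the PLX5622 libraries. Tgfbr1 exceeded Tgfbr2 by 1.88 to 2.51 times in the 6 libraries, and the log2 ratio of Tgfbr2 to Tgfbr1 was −1.16 ± 0.148 in control and −1.07 ± 0.225 in PLX5622 (SD, n = 3; exact permutation p = 0.7).

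Among the 14 tested of 16 other receptors and co-receptors, 12 were positive, 3 of them with an unadjusted p under 0.05, and 0 were called, against 61.1% and 14.7% of all genes. The median was 0.22 by label, 0.037 after length correction, with 8 of 14 positive, and 0.052 after an exchange of control 3 and PLX5622 3. Bmpr1a, a type I receptor for bone morphogenetic proteins (BMPs), was at 49.0 ± 12.1 TPM in control and 71.3 ± 4.30 TPM in PLX5622, and Bmpr1b, its close relative, at 29.8 ± 3.997 and 40.4 ± 3.63 TPM (SD, n = 3). The groups of both did not overlap, as in 19.4% of all genes, and their differences were 0.56 ± 0.18 and 0.43 ± 0.14 (limma adjusted p = 0.205). After length correction these were 0.39 and 0.27, and the authors' deposited table has 0.17 and 0.039. These BMP receptors were thus more abundant than either TGF-beta receptor in every library. Of 9 tested other ligands 6 were positive, with a median of 0.17 by label and 0.027 after length correction. Bmp7 was at 26.7 ± 3.95 and 31.5 ± 1.25 TPM and Gdf10 at 25.7 ± 1.59 and 28.6 ± 3.36 TPM. Bmp4, chosen after its values were seen, was at 4.91, 3.20 and 3.59 TPM in control and at 2.87, 2.02 and 2.22 TPM in PLX5622. Every PLX5622 library was below every control library, as in 9.39% of all genes, with a difference of −0.53 ± 0.17 (limma adjusted p = 0.205). Bmp4 was at −0.19 after an exchange of control 3 and PLX5622 3, and at −0.38 (SE 0.39) in the authors' deposited table. Of 6 tested secreted inhibitors 3 were positive (median 0.069), with Fstl1 at 0.26 ± 0.13 and Nog, a BMP antagonist, at 0.18 ± 0.15.

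Smad3 was the most abundant of the 9 genes. It was at 16.03, 27.0 and 18.8 TPM in control 1, 2 and 3 and at 27.3, 23.6 and 25.5 TPM in PLX5622. Control 2 lay within the PLX5622 range, and the difference was 0.32 ± 0.18 (log2, SE; 95% interval −0.091 to 0.73; limma adjusted p = 0.294). Smad2, the other receptor-activated Smad of this branch, was at 5.29, 6.61 and 6.38 TPM in control and at 7.31, 7.37 and 7.36 TPM in PLX5622. Its groups did not overlap and the SD of the PLX5622 libraries was 0.0332 TPM, but the difference of 0.24 ± 0.13 did not pass (95% interval −0.063 to 0.54; limma adjusted p = 0.288). The log2 ratio of Smad3 to Smad2 was 1.73 ± 0.261 in control and 1.79 ± 0.110 in PLX5622 (SD, n = 3; exact permutation p = 0.8).

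Smad7, the feedback inhibitor, was at 4.15, 7.03 and 5.47 TPM in control and at 6.72, 6.43 and 6.99 TPM in PLX5622. Control 2 had the highest value of all 6 libraries, and the difference was 0.26 ± 0.17 (log2, SE; 95% interval −0.13 to 0.65; limma adjusted p = 0.357). Smad2, Smad3 and Smad7 were, in the authors' deposited table, at 0.086, −0.0089 and 0.0033, with SEs of 0.16, 0.21 and 0.21.

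All 5 other Smads were positive by label and 4 of them had groups that did not overlap; 3 had an unadjusted p under 0.05 and 0 were called. Over all genes 61.1% were positive, 19.4% did not overlap in that direction and 14.7% had such a p. The median of the 5 was 0.37 by label, 0.22 after length correction and 0.099 after an exchange of control 3 and PLX5622 3. Smad4, the common partner of the receptor-activated Smads, was at 15.2, 21.6 and 18.1 TPM in control and at 23.3, 24.9 and 25.7 TPM in PLX5622, a difference of 0.42 ± 0.15 (log2, SE; limma adjusted p = 0.205). Smad5, a Smad of the BMP branch, was at 20.2 ± 6.30 and 30.5 ± 2.41 TPM (SD, n = 3), a difference of 0.61 ± 0.20. The authors' deposited table has Smad4 at 0.049 and Smad5 at 0.13. Of the 20 Smad regulators, all tested, 16 were positive, 8 of them with an unadjusted p under 0.05 and 1 in the other direction, against 61.1% positive and 14.7% and 8.02% with such a p over all genes. The median was 0.23 by label. After length correction 11 of the 20 were positive with a median of 0.058, and the exchange of control 3 and PLX5622 3 gave a median of 0.055. Fkbp1a, which binds type I receptors and keeps them inactive, was at 284, 317 and 318 TPM in control and at 260, 226 and 207 TPM in PLX5622. Every PLX5622 library was below every control library, as in 9.39% of all genes, with a difference of −0.41 ± 0.13 (limma adjusted p = 0.205). The authors' deposited table has it at −0.065. Strap, a receptor-binding inhibitor, differed by 0.15 ± 0.11. Of 7 genes of the Smad-independent branch 6 were positive (median 0.16; 0.083 after length correction), with Rhoa at 0.16 ± 0.12 and Mapk14, the p38 kinase, at 0.31 ± 0.17.

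Transcriptional targets of the pathway had mixed signs. Of 22 tested among 28 in the table, 13 were positive and 9 negative, 4 and 3 of them with an unadjusted p under 0.05, against 14.7% and 8.02% of all genes, and 0 were called. The median was 0.14 by label and 0.11 after length correction. The most abundant were the Id genes, inhibitors of differentiation that respond to BMP and TGF-beta. Id2 was at 327, 586 and 540 TPM in control and at 659, 779 and 635 TPM in PLX5622 (0.55 ± 0.21, limma adjusted p = 0.205). Its groups did not overlap, as in 19.4% of all genes. Id3 differed by −0.24 ± 0.16, Id4 by 0.32 ± 0.15 and Id1 by −0.099 ± 0.16, and the groups of these 3 overlapped.

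Ccn2, the connective tissue growth factor gene, was chosen after its values were seen because it had the same sign and size in both readings of the data. It was at 9.22, 15.6 and 17.0 TPM in control and at 23.4, 26.6 and 16.2 TPM in PLX5622. The difference was 0.64 ± 0.24 by label (log2, SE; limma adjusted p = 0.205), 0.63 ± 0.22 after length correction, and 0.69 after an exchange of control 3 and PLX5622 3. The authors' deposited table has it at 0.68 (SE 0.24), with a DESeq2 p of 0.00529 before adjustment, in a table where 0.847% of 20062 genes have a p under 0.05; 0 of the targets were called there. Timp1, a metalloprotease inhibitor gene and the other target with such a p in that table (log2 fold change 1.44, SE 0.57), was at −0.18 ± 0.30 by label. Among other direct targets, Pmepa1, a target that restrains the pathway, was at 8.78 ± 0.998 and 8.76 ± 0.822 TPM (SD, n = 3), and Skil, a repressor of Smads, differed by 0.14 ± 0.19. Junb, an AP-1 gene that is also an immediate early gene, was at 75.5, 26.2 and 63.6 TPM in control and at 23.8, 26.2 and 20.5 TPM in PLX5622 (−1.07 ± 0.33; limma adjusted p = 0.205). After an exchange of control 3 and PLX5622 3 its difference was −0.013. These genes other than the Id genes were chosen after their values were seen.

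**Figure D3:**
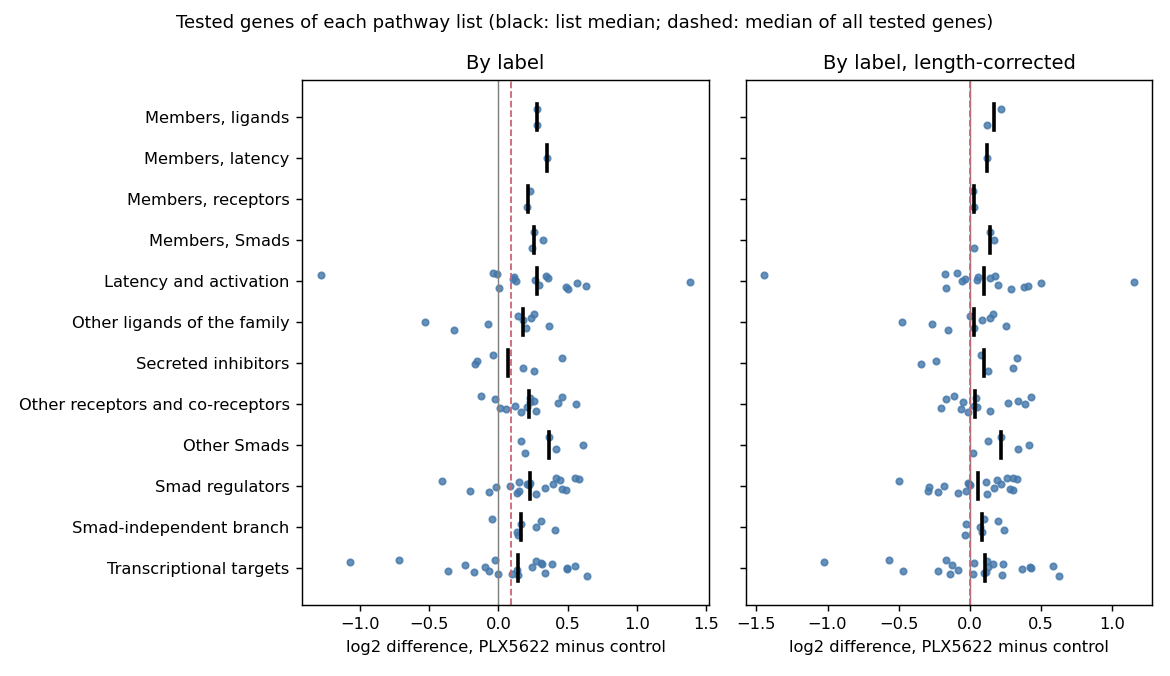
Log2 difference between diets (horizontal axis, PLX5622 minus control) of every tested gene of the 4 groups of members and 8 further pathway lists, by label and after correction for transcript length; black bars are list medians and the dashed line is the median of all tested genes. Medians of the 4 groups of members were 0.22 to 0.35 by label and 0.027 to 0.17 after correction.

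The 8 tested members shared an order among the lowest libraries. In all 8, control 1 was the lowest library and control 3 the second lowest. Control 2 was below the PLX5622 range in Tgfb2, Tgfb3 and Smad2, within it in Ltbp1, Tgfbr1, Tgfbr2 and Smad3, and above it in Smad7. The same order held in 4691 of 13084 tested genes (35.9%). Transcript length moved with this order, and its part in the differences between diets was not tested beyond the correction given here. Over 12794 genes, how far a library stood from the average library had a correlation with log exon length of −0.443 in control 1, −0.423 in control 3 and 0.218 to 0.401 in the remaining 4. The exon lengths of the 8 genes in GENCODE M21 ran from 3383 bases for Tgfb3 to 10691 bases for Ltbp1. After a correction for this trend within each library, the differences of the 8 genes were 0.021 to 0.22, with limma adjusted p from 0.224 to 0.911, while Tgfb1 was at −0.41 ± 0.14 (adjusted p = 0.175, filter at 0.5 TPM). Tgfbr2, Smad2 and Tgfbr1 were then at 0.021, 0.029 and 0.032, and Tgfb3, with 0.22 ± 0.099, had the largest positive value. After correction 50.6% of 12794 genes were positive and the median of all genes was 0.0041.

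**Figure D4:**
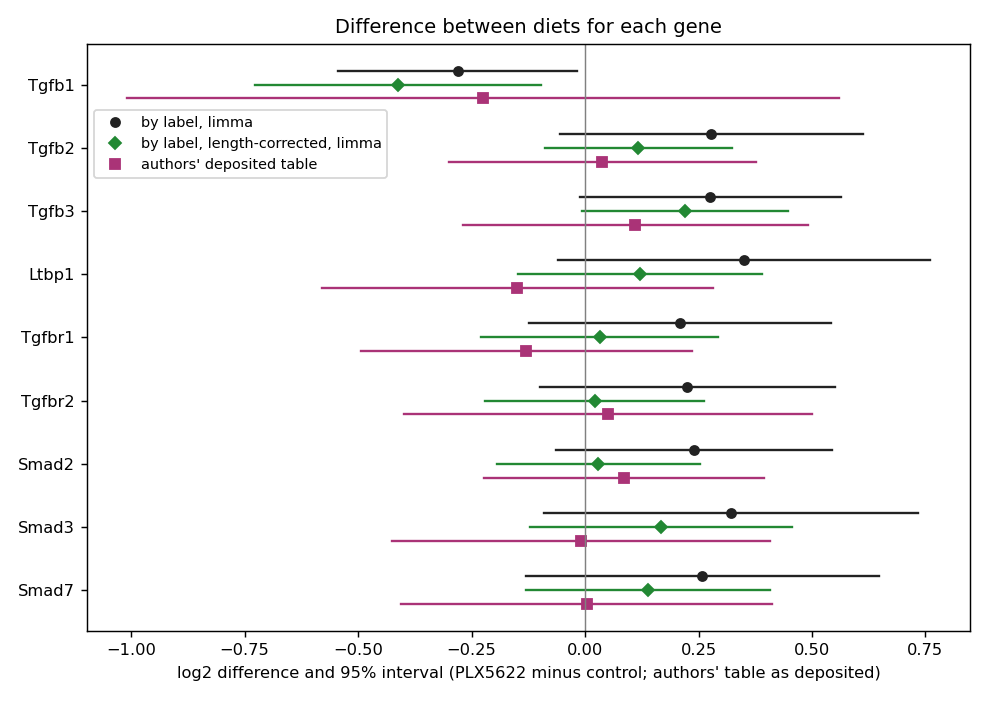
Log2 difference of each gene with its 95% interval from limma by label (circle), from limma after length correction (diamond) and from the authors' deposited table (square); Tgfb1 is taken from the limma step with a filter of 0.5 TPM. Points of the 8 genes other than Tgfb1 lie at 0.21 to 0.35 by label, at 0.021 to 0.22 after correction and at −0.15 to 0.11 in the authors' table.

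Whether any member was called turned on 1 library. Without control 2, limma called 3754 of 13081 genes, 2600 higher (19.9%) and 1154 lower (8.82%), and among them Ltbp1 (0.53 ± 0.16; limma adjusted p = 0.0230) and Smad3 (0.52 ± 0.14; limma adjusted p = 0.0171), 2 of 8 members; Smad7 was then at 0.42 and not called. The control libraries that remain are then the 2 with the negative length trend, so that trend and diet cannot be told apart. Without control 1 the differences were 0.17 for Smad3, 0.16 for Smad2, 0.15 for Tgfb2, 0.14 for Tgfbr2 and 0.098 for Smad7, without PLX5622 3 that of Tgfbr1 was 0.12, and no member was called. Without PLX5622 1 limma called 1 gene as higher (0.00765%) and 35 as lower (0.268%), and without control 3 and PLX5622 3 it called 2 as higher (0.0153%) and 12 as lower (0.0919%), with 0 members in either.

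Astrocyte transcripts differed between the diets in the direction of the 8 members, and neuron transcripts in the other. The 12 astrocyte genes summed to 24430, 34267 and 29885 TPM in control 1, 2 and 3 and to 38908, 42911 and 43202 TPM in PLX5622; all 12 were positive by label, with a median of 0.50, and 0 were called. That median was 0.19 after an exchange of control 3 and PLX5622 3 and 0.12 in the authors' deposited table. The 12 neuron genes summed to 1924, 2309 and 2016 TPM in control and to 1810, 1177 and 1217 TPM in PLX5622; all 12 were negative, with a median of −0.57, and 0 were called. Here the exchange gave −0.15 and the authors' deposited table −0.21. The 10 oligodendrocyte genes ran from 3381 to 4401 TPM in control and from 3003 to 4040 TPM in PLX5622, the 10 endothelial genes from 7.73 to 8.60 and from 5.95 to 7.41 TPM, and the 8 mural genes from 45.3 to 55.2 and from 31.3 to 53.6 TPM. The 8 precursor genes ran from 621 to 861 and from 770 to 834 TPM, and the 8 ependymal and choroid plexus genes from 236 to 534 and from 193 to 435 TPM. Ttr, a gene of the latter list, made up 302, 33.0 and 250 TPM of its sums in control 1, 2 and 3. In PLX5622 1, 2 and 3 Ttr made up 233, 52.9 and 2.09 TPM. The part of these cell type shifts in the differences of the 9 genes was not tested.

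Likeness between genes over the 6 libraries is given as a description, since all points share the same libraries and their length trend. Pearson correlations of log2(TPM + 1) among the 8 members other than Tgfb1 ran from 0.566 to 0.985, and those of Tgfb1 with them from −0.942 to −0.647. Among 9868 genes that averaged 5 TPM or more, Tgfb2 was most like Pon2, Phkg1 and Rnf139 (r = 0.998 to 0.9997), and 171 genes exceeded an r of 0.99. Smad3 was most like Nat10, Ssrp1 and Vldlr (0.998 to 0.999), Smad7 like Adcy3, Wdr11 and Tesk2, and Smad2 like Cryz, Pde7b and Tapt1. Ltbp1 was most like Acaca, Atg2a and Ep400, Tgfbr1 like Snx14, Pnp2 and Msmo1, and Tgfbr2 like Tm7sf2, Tmem175 and Dhx34. Tgfb3 had 1 gene above 0.99, Cnot3, followed by Fam172a and Tfcp2l1. Tgfb1, which its low level places outside the rule for these comparisons, was most like Bex3, Bex2 and Ydjc (0.997 to 0.999), none of them in the microglia list.

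In the authors' deposited table all 9 genes had an adjusted p of 1.00 from DESeq2, where 14 of 20062 genes (0.0698%) were called. Their log2 fold changes ran from −0.22 for Tgfb1 to 0.11 for Tgfb3, and the 95% intervals all spanned 0. The narrowest was that of Smad2, from −0.22 to 0.40, and the widest that of Tgfb1, from −1.01 to 0.56. Tgfb1, Ltbp1, Tgfbr1 and Smad3 were negative there and the other 5 positive, and of the 5 other Smads 0 were negative, with a median of 0.049.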

How the data were processed

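Each sample is a RiboTag library of mouse brain, grouped by the diet in its title. The authors deposited 1 TPM value per gene and library; the tools named, per the submitters' processing notes, were R 4.1.0, DESeq2 1.32.0, Subread 2.0.1 with featureCounts and STAR 2.7.10a, on build mm39. For annotation, gene lengths and filters no source used here gives details. A second deposited table holds the authors' comparison: its baseMean is a signal (mean of normalized counts), its fold changes and SEs are on the log2 scale, its statistic is a score, and its p-value columns are raw and adjusted values, per the file headers. Its numerator is not named; negative was read as lower on PLX5622, since microglial genes are negative there.

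TPM keeps no depth, so no counting interval is given. Differences were tested two-sided with limma 3.58.1 (R 4.3.3), with the trend option, on log2(TPM + 1) of the 13084 genes whose mean reached 1 TPM, with Benjamini-Hochberg adjustment over all of them and a threshold of 0.05. The limma step was tested on simulated data. Length correction subtracted a per-library lowess curve on log exon length (GENCODE M21), available for 97.8% of tested genes. The libraries are non-stranded, so reads of antisense neighbours cannot be told apart; in GENCODE M21, Tgfb2 and Tgfb3 overlap unnamed antisense genes by 124 to 257 bases and the other 7 overlap none. Promoter sequences are those of RefSeq. Same-numbered libraries of the diets were not paired by any label.

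The members and lists were chosen with earlier results of these data known. Named were all members, the 2 most abundant tested genes of each pathway list (4 for activation and targets) and, for each member, the 3 most similar genes; others are marked as chosen after seeing values.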

Additional observations from a re-analysis of the deposited data

How the results depend on the processing

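Of 158 alternative values of the 9 differences, 156 kept the direction of the main value. In that count, changes of filter alone, the replicate block and the fit without the variance trend leave each difference unchanged. Its direction could not reverse there. The 2 exceptions came from an exchange of control 3 and PLX5622 3, where Ltbp1 was at −0.089 and Tgfbr1 at −0.059; the cause was not tested. limma called 14 genes without both of these libraries and 2 with the filter at 0.5 TPM, a setting added after seeing the data, and 0 to 3754 with 1 library left out; 0 members were called except 2 without control 2. With no filter, or the filter at 0.5 TPM with or without length correction, 1 member (Tgfb1) reached an unadjusted limma p under 0.05. Over all genes, 6.78% were lower at such a p with no filter, 8.04% at 0.5 TPM and 10.8% with length correction added. Such a p was reached by 1 member without the variance trend (Tgfb3), and by 0 to 4 with 1 library left out. The 4 came without control 2, where 28.7% of all genes passed the adjusted threshold. Shares of all genes at an unadjusted p were not counted for these settings. For the order of levels, 6 neighbouring pairs passed over 6 libraries and 0 with 1 library left out, since 5 libraries cannot give an exact permutation p below 0.0625; the order of mean levels was the same in all 6 of these. At pseudocounts of 0.1 and 0.5 the Tgfb1 difference was −0.53 and −0.38. Size-factor scaling moved the median of all tested genes from 0.089 to 0.012 and gave 0.14 to 0.27 for the 8 tested members. With the replicate number as a block limma called 0 genes and 0 members (member adjusted p 0.324 to 0.484). The numbers did not pair the libraries: deviations of same-numbered libraries from their group means correlated at −0.033, −0.272 and −0.147 across genes. Tgfbr1, Tgfbr2 and Tgfb1 have no value at a filter of 5 TPM. Reads per library are unknown, and Tgfb1, at 44.4 normalized counts on average in the authors' deposited table, has the least support.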
